A study of Mus musculus with 4 samples.

Results

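Transforming growth factor β (TGF-β) genes were examined in the transcriptome of large peritoneal macrophages (LPMs), which reside in the fluid-filled space around the gut. A set of 10 genes was chosen by name to cover the route from ligand to target: *Tgfb1*, *Tgfb2*, *Ltbp1*, *Thbs1*, *Tgfbr1*, *Tgfbr2*, *Smad3*, *Smad7*, *Skil* and *Tgfbi*. Of these, 9 were among the 18364 genes of the table, and *Tgfb1* was not analysed here. The set was chosen with earlier results of these data known. The cells had been sorted as F4/80+ MHCII-negative CD102+ from C57BL/6 mice aged 8 weeks, and their RNA was sequenced in bulk with a low-input, full-length cDNA kit. There were 2 libraries labelled WT (wild type) and 2 labelled Rxra-KO (genotype Rxra-/-), and no treatment is given in the labels. Per the methods of the study, *Rxra* fl/fl mice were crossed with mice that carry Cre in the *Lyz2* (LysM) locus, and the controls were *Rxra* fl/fl littermates. Such a Cre is active across myeloid cells and not in LPMs alone. Whether each library came from 1 animal or from a pool is not given in the sources used here. The spread between libraries behind every p-value may therefore be technical, and in limma it is mostly spread shared between genes.

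TGF-β ligands are secreted as latent complexes, in which the propeptide stays wrapped around the growth factor and is bound to a partner protein, an LTBP in the matrix or a membrane protein such as NRROS (LRRC33) on myeloid cells. Integrins and thrombospondin-1 can free the ligand, which binds the type II receptor TGFBR2. This receptor recruits and activates the type I receptor TGFBR1, and SMAD2 and SMAD3 are then phosphorylated and enter the nucleus with SMAD4, while SMAD7 and SKIL restrain the signal. LPMs are known as a source of TGF-β2, and *Tgfb2* and *Ltbp1* are counted among the genes that set them apart from other resident macrophages.

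In libraries with the Rxra-KO label, *Ltbp1* was 4.67-fold lower, *Thbs1* 3.47-fold lower and *Tgfb2* 2.22-fold lower than in WT, while *Tgfbr2* was 3.48-fold higher and *Tgfbi* 1.64-fold higher. A gene was called at a limma adjusted *p* under 0.05 (Benjamini-Hochberg over all genes) together with a log2 difference of at least 0.6 in size. By this rule 5 of the 9 genes were called, against 2.29% of all genes, or 4.1% of the 10049 genes with a mean value of at least 10. Of these, 3 were lower, against 0.969% of all genes, and 2 were higher, against 1.32%. The libraries of both groups did not overlap for 6 of the 9 genes, against 38.1% of all genes, with 4 of them lower (19.3%) and 2 higher (18.8%). At an unadjusted *p* under 0.05, limma gave 6 of the 9, against 10.1% of all genes. Because the genes were chosen with earlier results known, these shares are no test of the set. The median log2 difference was 0.06 over the 9 genes and -0.34 without *Smad7*, which was at the floor, against 0.02 over all genes. In bulk RNA, fewer cells of a type and less RNA per cell cannot be told apart.

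**Figure D1:**
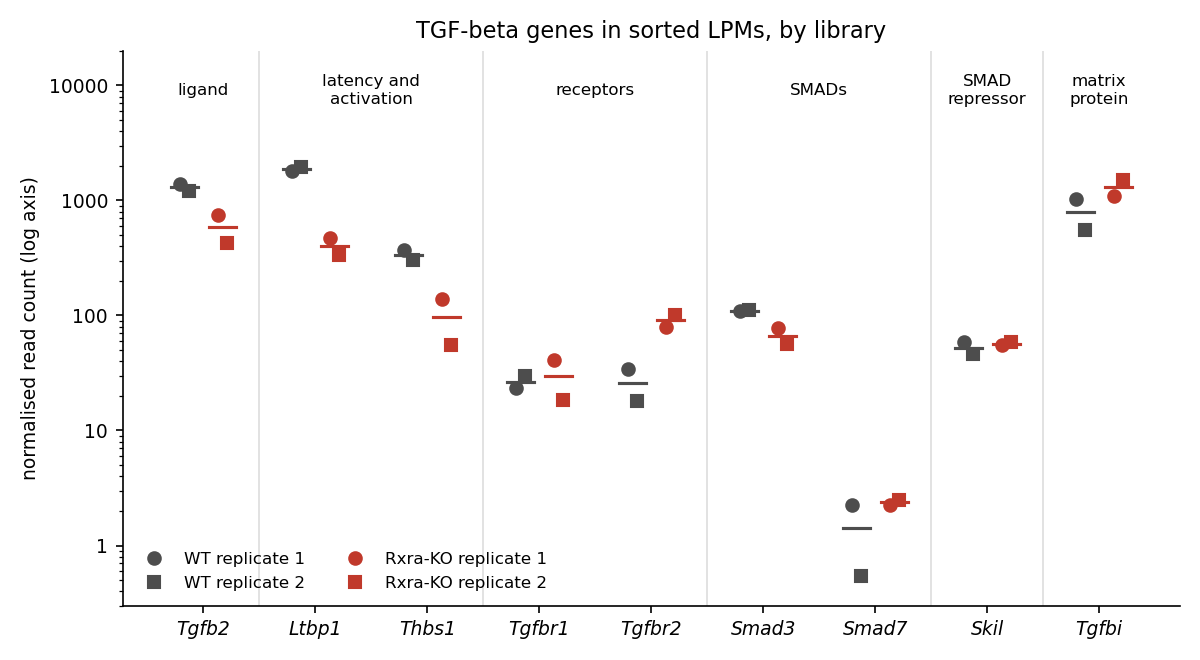
Normalised read count of the 9 TGF-β genes in each library, on a log axis. Grey symbols are WT and red symbols Rxra-KO libraries, with circles for replicate 1, squares for replicate 2 and a bar at the mean of each group. *Ltbp1* lay at 1816 and 1952 in WT against 469 and 338 in Rxra-KO, while the symbols of *Skil* and *Tgfbr1* overlapped.

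**Figure D2:**
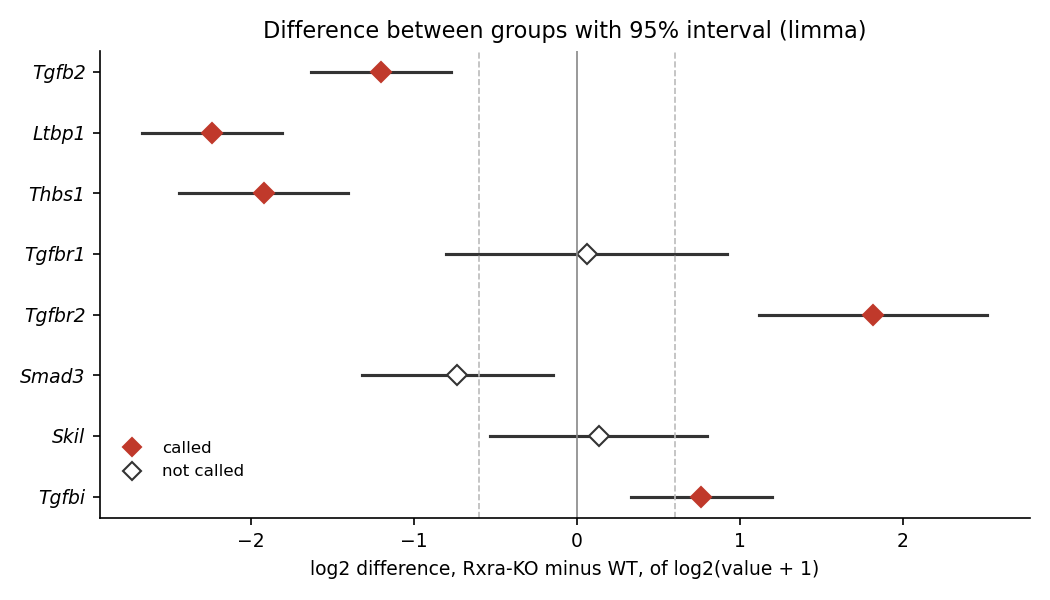
Log2 difference, as Rxra-KO minus WT by label, on the log2(value + 1) scale, for the 8 genes above the floor. Diamonds are estimates and lines 95% intervals from limma, filled diamonds are called genes and dashed lines mark a difference of 0.6 in either direction. The intervals of *Tgfb2*, *Ltbp1*, *Thbs1*, *Tgfbr2* and *Tgfbi* stayed clear of 0, as did that of *Smad3*, which did not pass after adjustment over all genes.

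Depth and labels bear on each of these values. Between 629030 and 1047021 reads were recovered per library, with both groups holding 1 shallower and 1 deeper library, and 1 read was worth a value between 0.993 and 1.51. A typical gene had few reads (median over genes and libraries 9). With 311 to 1799 reads in each library, *Tgfb2*, *Ltbp1* and *Tgfbi* had far less counting error for their level than *Tgfbr1* or *Smad7*. Counting error does not cover the spread between libraries, which was wide for *Tgfbi*. Reads of *Rxra* itself numbered 20 and 28 in WT, against 33 and 77 in the libraries labelled Rxra-KO, a log2 difference of 0.99 (limma adjusted *p* = 0.183), so the targeted gene was not lower. *Rxrb*, the gene of a related receptor, had a log2 difference of 0.18 (limma adjusted *p* = 0.973). Reads of exons outside the deleted part would still be counted, and the table cannot separate them. *Lyz2*, whose locus carries the Cre, was lower by 1.03 on the log2 scale in the libraries labelled Rxra-KO (limma adjusted *p* = 0.00163), a call that was lost without WT replicate 1 (-0.88) or WT replicate 2 (-1.18). Directions below refer to the labels.

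Other cells in the sort were assessed with marker lists. Of 10 LPM markers, 7 were called and all 7 were lower, namely *Gata6*, *Icam2* (the gene of CD102, used in the sort), *Emr1* (the gene of F4/80), *Prg4*, *Alox15*, *Selp* and *Arg1*. The summed value of this list was 32328 and 33807 in WT against 16880 and 18391 in Rxra-KO. *Prg4* alone made up 28429 and 29683 of this in WT, against 15129 and 16567 in Rxra-KO. Of the 3 LPM markers not called, *Timd4* and *Cd9* had log2 differences of -0.80 and -0.34, and *Vsig4* had one of 0.12. Of 7 markers of small peritoneal macrophages, the monocyte-derived macrophages of the cavity, 5 were called, with *Irf4*, *Ccr2*, *Mrc1* and *Retnla* higher and *H2-Ab1* lower. The list summed to 724 and 2710 in WT, against 3215 and 5128 in Rxra-KO. *H2-Ab1*, an MHC class II gene, made up 366 and 2484 of this in WT, against 160 and 610 in Rxra-KO. The values of this gene overlapped between groups, with WT replicate 2 apart from the rest. Without it the sums were 359 and 227 in WT, against 3055 and 4518 in Rxra-KO. *Cd74* of the same list also had a lower mean, with values of 18.9 and 118 in WT, against 11.3 and 49.2 in Rxra-KO. These values overlapped too, and the log2 difference of -0.97 was not called (limma unadjusted *p* = 0.024, adjusted *p* = 0.348). The part that these shifts play in the TGF-β genes was not tested. No marker of the platelet (9 in the table), mesothelial (7), fibroblast (4), endothelial (5), B cell (4), mast cell (4) or neutrophil (1) lists was called by limma, with 1 platelet, 1 mesothelial and 1 B cell marker at an unadjusted *p* under 0.05. *Cd209a*, 1 of 5 dendritic cell markers, was called and higher. Of 4 T cell markers, *Cd2* was called and higher (0 reads in both WT libraries, 11 and 6 in Rxra-KO), while *Lck* had 7 and 11 reads in WT, against 2 and 0 in Rxra-KO, and was not called (limma unadjusted *p* = 0.00435). The T cell sums of 43.9 and 41.2 in WT, against 60.2 and 34.8 in Rxra-KO, overlapped. The mesothelial markers, whose cells line the cavity, summed to 73.4 and 98.2 in WT, against 62.5 and 80.0 in Rxra-KO. *Lrrn4* alone made up 58.3 and 76.5 of this in WT, against 47.4 and 32.3 in Rxra-KO. Of the 7 mesothelial markers, 5 had a higher and 2 a lower log2 value in Rxra-KO, with a median difference of 0.66. The fibroblast markers summed to 46.9 and 42.3 in WT, against 43.7 and 29.8 in Rxra-KO. No listed marker of the table was without reads in all 4 libraries.

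Promoter sequence was printed for the called genes that had an entry in the RefSeq promoter table (GRCm38.p6), to show the DNA before their start sites. Each line gives the 250 bases before a start, 5′ to 3′ on the strand of the gene, and *Ltbp1* has 2 starts, the second inside the gene and downstream of the first. Capitals mark the SMAD box CAGAC or its reverse complement GTCTG and the TATA box TATAAA. There was no entry for *Thbs1*, *Smad7* or *Skil*.
*Tgfb2*, chr1:186705990-186706239, minus strand: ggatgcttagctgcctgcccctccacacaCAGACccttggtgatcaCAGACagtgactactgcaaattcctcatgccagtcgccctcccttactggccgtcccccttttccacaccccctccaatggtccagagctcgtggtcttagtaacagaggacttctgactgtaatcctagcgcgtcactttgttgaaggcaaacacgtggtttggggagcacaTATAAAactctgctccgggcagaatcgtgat
*Ltbp1*, first start, chr17:75005279-75005528, plus strand: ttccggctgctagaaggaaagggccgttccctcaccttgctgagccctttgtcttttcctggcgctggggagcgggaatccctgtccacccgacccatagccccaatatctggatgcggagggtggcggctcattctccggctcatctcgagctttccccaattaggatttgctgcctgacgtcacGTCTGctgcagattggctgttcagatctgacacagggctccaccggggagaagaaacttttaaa
*Ltbp1*, second start, chr17:75178531-75178780, plus strand: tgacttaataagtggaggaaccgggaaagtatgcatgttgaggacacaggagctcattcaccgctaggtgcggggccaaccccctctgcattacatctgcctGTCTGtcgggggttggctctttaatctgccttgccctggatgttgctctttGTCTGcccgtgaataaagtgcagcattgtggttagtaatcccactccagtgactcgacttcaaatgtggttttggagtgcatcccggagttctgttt
*Tgfbr2*, chr9:116175364-116175613, minus strand: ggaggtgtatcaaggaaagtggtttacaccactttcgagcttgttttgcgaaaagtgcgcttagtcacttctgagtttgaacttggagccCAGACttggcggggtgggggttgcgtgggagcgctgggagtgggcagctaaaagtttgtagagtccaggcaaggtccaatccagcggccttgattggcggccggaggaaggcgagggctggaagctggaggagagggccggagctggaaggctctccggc
*Tgfbi*, chr13:56609336-56609585, plus strand: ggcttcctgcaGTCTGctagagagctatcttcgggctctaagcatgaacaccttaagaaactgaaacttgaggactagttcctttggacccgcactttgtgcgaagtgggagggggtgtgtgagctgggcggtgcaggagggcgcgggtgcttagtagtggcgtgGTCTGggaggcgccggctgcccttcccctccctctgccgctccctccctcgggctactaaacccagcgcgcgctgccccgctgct

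Both strands were searched. A SMAD box stood 2 times in the *Tgfb2* window, 1 and 2 times in those of *Ltbp1*, 1 time in that of *Tgfbr2* and 2 times in that of *Tgfbi*, and at least 1 was found in 42.2% of the 32817 promoter windows of the same length. The *Tgfb2* window alone held the TATA box, 31 bases before the start, as did 12.4% of all windows. The nuclear receptor half-site AGGTCA was in none of these windows, against 14% of all, nor were 2 such half-sites in the same direction with 1 base between them (0.0335%) or with 5 bases between them (0.00914%), spacings that RXR dimers are known to bind. The GATA box AGATAA was also in none of them, against 9.99% of all. Genes that fell and genes that rose both held a SMAD box, and a match or its absence in these windows is a description of the letters only.

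*Tgfb2* encodes the TGF-β2 ligand. Its normalised read count was 1383 and 1213 in the WT libraries and 746 and 425 in the libraries labelled Rxra-KO. Both Rxra-KO libraries lay below both WT libraries, and the group mean went from 1298 ± 120 to 585 ± 227 (SD, n = 2). The log2 difference was -1.20 with a standard error of 0.22 and a 95% interval from -1.63 to -0.77 (limma adjusted *p* = 1.85e-05). The fall rested more on 1 library than on the other, since it was -0.80 without Rxra-KO replicate 2 and -1.61 without Rxra-KO replicate 1, and it was called in either case. *Tgfb3*, the only other TGF-β ligand gene measured, had 11 and 6 reads in WT, against 10 and 6 in Rxra-KO. Per kilobase of exon, *Tgfb2* made up 98.1% and 99.1% of the reads of these 2 ligand genes in WT, against 96.8% and 97.7% in Rxra-KO, so TGF-β2 transcripts outnumbered those of TGF-β3 in every library.

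*Ltbp1* encodes latent TGF-β binding protein 1, which ties the latent ligand to matrix fibres. Values were 1816 and 1952 in WT, against 469 and 338 in Rxra-KO. The highest Rxra-KO library was far below the lowest WT library, with means of 1884 ± 96.2 and 404 ± 92.5 (SD, n = 2). The log2 difference was -2.24 with a standard error of 0.22 and an interval from -2.67 to -1.81 (limma adjusted *p* = 6.04e-18), and 0.234% of all genes had a lower one. Leaving out each library in turn gave between -2.47 and -2.0.

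The balance between ligand and binding protein also moved. Per kilobase of exon, *Ltbp1* stood at 263 and 283 in WT beside 266 and 233 for *Tgfb2*, and at 68.0 and 49.0 in Rxra-KO beside 143 and 81.7. In WT the range of one gene overlapped that of the other, whereas *Ltbp1* lay below its ligand in both Rxra-KO libraries. The ratio of the normalised read counts of *Ltbp1* and *Tgfb2* within a library was 1.31 and 1.61 in WT, against 0.629 and 0.796 in Rxra-KO. The limma log2 difference of *Ltbp1* minus that of *Tgfb2* was -1.04. The smallest two-sided *p* of an exact permutation test with 2 libraries in each group is 0.333, and so no test of the ratios is given.

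*Thbs1* encodes thrombospondin-1, a matrix protein that can release TGF-β from its latent complex. Its value was 369 and 301 in WT, against 138 and 55.1 in Rxra-KO. Again the groups did not overlap, and the mean fell from 335 ± 47.8 to 96.4 ± 58.4 (SD, n = 2). The log2 difference was -1.92 with a standard error of 0.26 and an interval from -2.44 to -1.40 (limma adjusted *p* = 1.54e-09). Without Rxra-KO replicate 2 the difference was -1.27, and DESeq2 did not call the gene at a log2 difference of -1.83. *Thbs1* is also a platelet gene. The 9 platelet and megakaryocyte markers summed to 152 and 129 in WT, against 142 and 151 in Rxra-KO, with *Pf4* making up 94.6 and 89.5 of these in WT, against 103 and 103 in Rxra-KO. *Itga2b* of the same list had 0 and 1 reads in WT, against 4 and 8 in Rxra-KO, and was not called (limma unadjusted *p* = 0.0138). The part of platelets in the values of *Thbs1* was not tested. *Thbs1* fell further than *Tgfb2*, with a ratio of 0.267 and 0.248 in WT, against 0.185 and 0.130 in Rxra-KO, and this difference between the genes was not tested.

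The make-up of the genes for LTBPs and for membrane partners of latent TGF-β also moved. *Nrros*, from the list of other latency genes, encodes the membrane protein that holds latent TGF-β on macrophages and microglia. Its value was 137 and 96.0 in WT, against 323 and 343 in Rxra-KO. Both Rxra-KO libraries were above both WT libraries, with a log2 difference of 1.53, a standard error of 0.25 and a limma adjusted *p* of 9.32e-07. A set of 6 genes, put together after these values had been seen, held the LTBP genes (*Ltbp1* to *Ltbp4*), *Nrros* and *Lrrc32*. Within this set, *Ltbp1* made up 85.7% and 88.6% of the reads per kilobase of exon in WT, against 42.4% and 33.7% in Rxra-KO. The share of *Nrros* was 11.3% and 7.59% in WT, against 50.8% and 59.5% in Rxra-KO, so *Nrros* passed *Ltbp1* in both Rxra-KO libraries and in neither WT library. *Ltbp3* had values of 34.1 and 38.5 in WT, against 30.9 and 35.3 in Rxra-KO, a log2 difference of -0.13 (limma adjusted *p* = 0.98). *Ltbp2*, *Ltbp4* and *Lrrc32*, which encodes the partner GARP, had between 1 and 13 reads in each library and were not called.

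**Figure D3:**
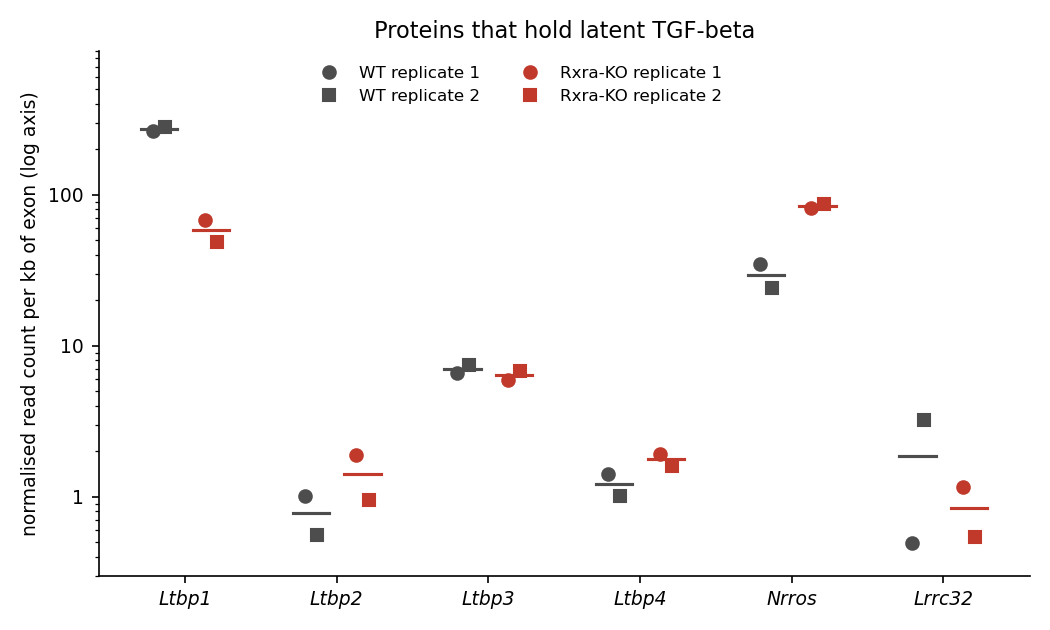
Normalised read count per kilobase of exon, on a log axis, for the 6 genes of LTBPs (*Ltbp1* to *Ltbp4*) and of membrane partners of latent TGF-β (*Nrros* and *Lrrc32*). Symbols and bars are as in the plot of the TGF-β genes by library. *Ltbp1* was at 263 and 283 in WT, against 68.0 and 49.0 in Rxra-KO, whereas *Nrros* was at 34.6 and 24.2 in WT, against 81.5 and 86.6 in Rxra-KO.

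*Tgfbr2* encodes the receptor that binds the ligand first. It had 22 and 16 reads in WT, against 52 and 102 in Rxra-KO, or normalised values of 34.1 and 17.9 against 79.0 and 102. The exact Poisson 95% intervals of the reads were 13.8 to 33.3 and 9.15 to 26.0 in WT and 38.8 to 68.2 and 83.2 to 124 in Rxra-KO, which cover counting error only. No WT library reached an Rxra-KO library, and the means were 26.0 ± 11.4 and 90.4 ± 16.1 (SD, n = 2). The log2 difference was 1.82 with a standard error of 0.36 and an interval from 1.12 to 2.52 (limma adjusted *p* = 9.56e-05), and it ran from 1.37 to 2.26 when each library was left out. The summed small peritoneal macrophage and dendritic cell markers were higher in the same libraries, the latter at 56.8 and 48.3 in WT, against 109 and 146 in Rxra-KO. Of this dendritic cell sum, *Cd209a* alone made up 22.0 and 14.6 in WT, against 65.5 and 80.0 in Rxra-KO. The part of either cell type in the rise of *Tgfbr2* was not tested.

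*Tgfbr1* encodes the kinase receptor that TGFBR2 activates. It had 15 and 27 reads in WT, against 27 and 18 in Rxra-KO, with values of 23.5 and 29.8 against 41.4 and 18.4. The groups overlapped, and the log2 difference of 0.06 had an interval from -0.80 to 0.92 (limma adjusted *p* = 0.994). With so few reads, neither a rise nor a fall of *Tgfbr1* could be told from the spread between libraries. The ratio of *Tgfbr2* to *Tgfbr1* was 1.45 and 0.60 in WT, against 1.91 and 5.54 in Rxra-KO, a wide range within each group. The ratio of ligand to its receptor, *Tgfb2* to *Tgfbr2*, was 40.6 and 67.8 in WT, against 9.44 and 4.17 in Rxra-KO.

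**Figure D4:**
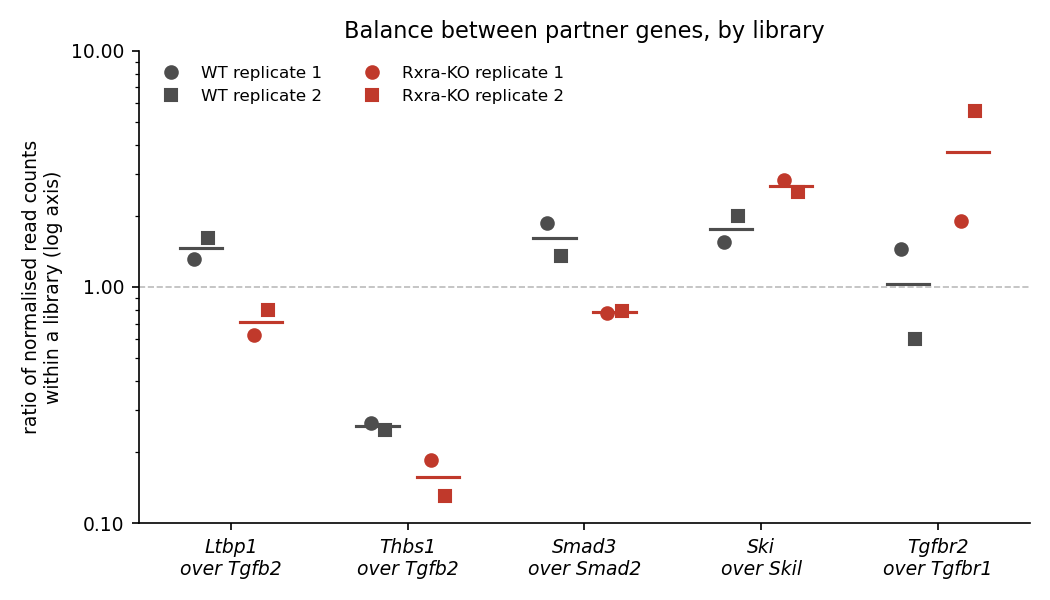
Ratio of the normalised read counts of pairs of partner genes within each library, on a log axis, with symbols as in the plot of the TGF-β genes by library and a dashed line at a ratio of 1. *Ltbp1* over *Tgfb2* and *Smad3* over *Smad2* lay above 1 in both WT libraries and below 1 in both Rxra-KO libraries. These counts are not divided by exon length. Per kilobase of exon, *Smad3* lay above *Smad2* in every library, and *Ltbp1* lay below *Tgfb2* in WT replicate 1 as well.

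*Smad3* encodes a transcription factor that carries the signal to DNA. Values were 108 and 112 in WT, against 77.5 and 56.1 in Rxra-KO. The groups did not overlap, with means of 110 ± 2.84 and 66.8 ± 15.2 (SD, n = 2), yet the log2 difference of -0.73 (95% interval -1.32 to -0.15) did not pass the test (limma unadjusted *p* = 0.0147, adjusted *p* = 0.276). *Smad2*, which encodes the other transcription factor of this branch, had values of 58.3 and 83.0 in WT, against 100 and 71.0 in Rxra-KO, a log2 difference of 0.27 (limma adjusted *p* = 0.89). The ratio of *Smad3* to *Smad2* was 1.86 and 1.35 in WT, against 0.774 and 0.790 in Rxra-KO. Per kilobase of exon, *Smad3* stood at 21.3 and 22.1 in WT beside 6.78 and 9.66 for *Smad2*. In Rxra-KO it stood at 15.2 and 11.0 beside 11.7 and 8.26, so it lay above *Smad2* in every library.

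*Smad7* encodes the inhibitor that blocks the type I receptor and is itself a target of the signal in many cells. It had 1 and 0 reads in WT, against 1 and 2 in Rxra-KO, at or under the floor of 3 reads in every library, so no fold is given. A count of 0 in WT replicate 2 allowed up to 3 reads, which are worth 3.25 without the 0.5 read that the deposited values add. *Skil* encodes SnoN, a repressor of SMAD complexes that the signal also induces. Its values of 58.3 and 46.1 in WT, against 55.0 and 59.1 in Rxra-KO overlapped, and the log2 difference of 0.13 had an interval from -0.53 to 0.80 (limma adjusted *p* = 0.969). *Ski*, the gene of the related repressor, had values of 90.1 and 91.7 in WT, against 156 and 148 in Rxra-KO, and its log2 difference of 0.74 did not pass the test (limma adjusted *p* = 0.195).

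*Tgfbi* encodes TGF-β induced protein, a secreted matrix protein that binds integrins. Its value was 1032 and 551 in WT, against 1094 and 1499 in Rxra-KO. The WT libraries differed widely from each other, and Rxra-KO replicate 1 was close above WT replicate 1. The means were 791 ± 340 and 1297 ± 287 (SD, n = 2), with a log2 difference of 0.76, a standard error of 0.22 and an interval from 0.33 to 1.20 (limma adjusted *p* = 0.0305). This call was the least firm of the 5. Without WT replicate 2 the difference was 0.31, without Rxra-KO replicate 2 it was 0.54, neither was called, and edgeR and DESeq2 did not call the gene either. Per kilobase of exon *Tgfbi* was at 380 and 203 in WT, against 403 and 552 in Rxra-KO. It thus lay above *Ltbp1* and *Tgfb2* in every library except WT replicate 2, where it was below both.

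The 5 called genes differed widely in level as well as direction. By mean value, *Tgfb2*, *Ltbp1* and *Tgfbi* lay at the 99.4th, 99.5th and 99.5th percentile of all genes, *Thbs1* at the 95.8th and *Tgfbr2* at the 83.8th. In each of them, Rxra-KO replicate 2 lay farther from the WT mean than Rxra-KO replicate 1. Among all 421 called genes this held for 170, or 40.4%, and among the 7 called LPM markers it held for 2. Of the genes not called, *Tgfbr1* had replicate 1 farther from the WT mean.

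The rest of the pathway was counted from 7 lists of other genes, with 105 of 112 listed genes in the table. Of these 105, 6 were called, or 5.71%, against 2.29% of all genes, with 5 higher and 1 lower. The libraries did not overlap for 50, or 47.6%, against 38.1% of all genes. Their median log2 difference was 0.03. Of 18 genes of latency and activation, among them the integrins that pull on latent complexes, *Nrros* was the 1 called by limma. *Itgb1*, the integrin β1 chain, had values of 340 and 522 in WT, against 257 and 240 in Rxra-KO, and its log2 difference of -0.76 did not pass the test (limma adjusted *p* = 0.0541). It was called as lower by edgeR and limma voom, with DESeq2 size factors, without WT replicate 1 and with a replicate block, and the difference was -0.45 without WT replicate 2. *Emilin1* (log2 difference -0.66, limma adjusted *p* = 0.398), a matrix inhibitor of TGF-β processing, and *Itgb3* (-0.37, 0.836) were not called either.

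**Figure D5:**
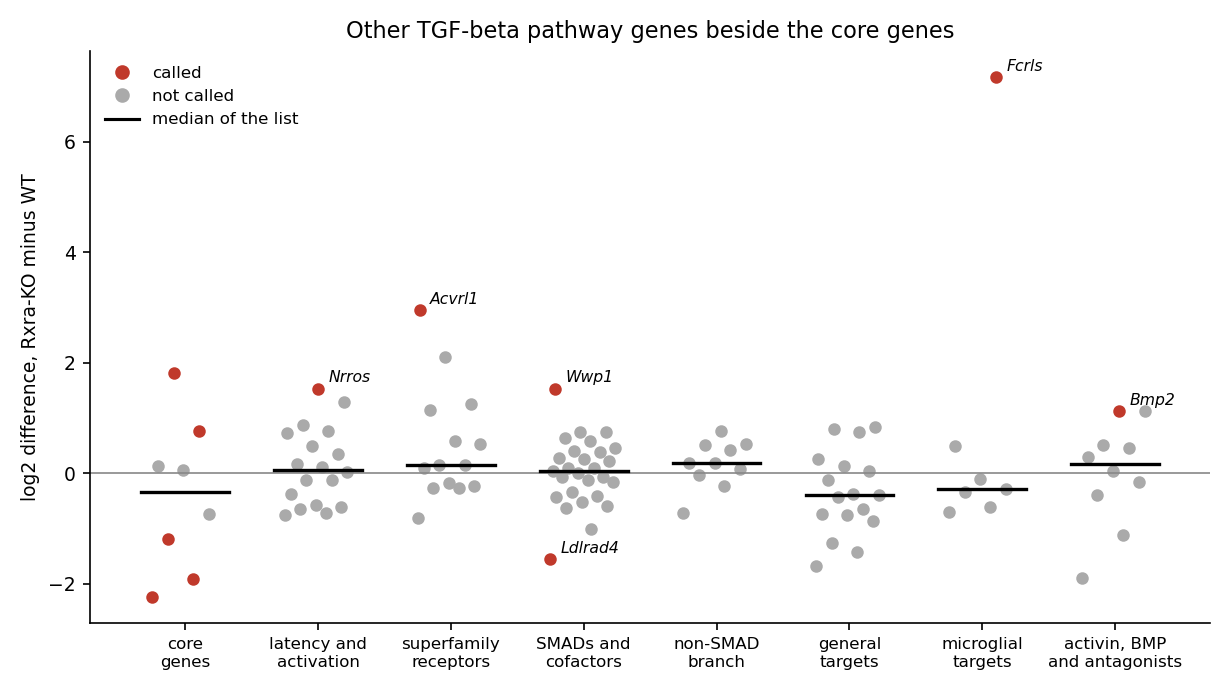
Log2 difference, as Rxra-KO minus WT by label, of the TGF-β genes (core genes) and of the 7 lists of other pathway genes, without genes at the floor in both groups. Each point is a gene, red where it was called, and the black bar is the median of the points shown. Called genes outside the core are named, and they were 5 higher and 1 lower.

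Of 14 receptors of the TGF-β superfamily, *Acvrl1* was called. It encodes a type I receptor known mainly from endothelial cells, where it binds bone morphogenetic proteins (BMPs), and it had 1 and 3 reads in WT, against 17 and 33 in Rxra-KO. With 3 reads taken for each WT library, the ratio of the Rxra-KO mean to the WT mean was 7.49. This ratio is no lower bound, since it leaves out counting error in both groups. The log2 difference was 2.95 with a limma interval from 1.66 to 4.24 (limma adjusted *p* = 0.00108). *Acvrl1* was not called when either Rxra-KO library was left out. DESeq2 gave it no adjusted *p*, and did not call it without independent filtering. The 5 endothelial markers summed to 55.3 and 37.4 in WT, against 44.4 and 53.1 in Rxra-KO. *Tgfbr3*, the co-receptor betaglycan that presents TGF-β2 to TGFBR2, had values of 31.0 and 19.0 in WT, against 38.4 and 79.0 in Rxra-KO, and its log2 difference of 1.15 did not pass the test (limma adjusted *p* = 0.115). EdgeR called it at 1.31, and leaving out each library in turn gave between 0.64 and 1.66. *Bmpr2*, a BMP receptor (log2 difference 0.10, limma adjusted *p* = 0.977), and *Bmpr1a* (-0.81, 0.448) were not called.

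Of 28 SMAD proteins and cofactors, *Wwp1* was called and higher and *Ldlrad4* was called and lower. *Wwp1* encodes a ubiquitin ligase that acts on TGF-β receptors and SMADs, and it had 91 and 91 reads in WT, against 260 and 296 in Rxra-KO, a log2 difference of 1.53 (limma adjusted *p* = 9.32e-07). *Ldlrad4* encodes a membrane protein that limits access of SMADs to the receptor, and it had 24 and 41 reads in WT, against 7 and 15 in Rxra-KO, a log2 difference of -1.56 (limma adjusted *p* = 0.0388), and the call was lost whenever 1 of the 4 libraries was left out, in limma voom, without a scaling factor and in DESeq2 without independent filtering. *Fkbp1a*, which encodes a guard of the type I receptor (log2 difference 0.74, limma adjusted *p* = 0.1), and *Crebbp*, a co-activator (0.40, 0.736), were not called. None of 11 genes of the non-SMAD branch was called by limma, edgeR or DESeq2, with 2 at an unadjusted *p* under 0.05. The most abundant of them, *Rock1*, *Rhoa* and *Rock2*, had log2 differences of 0.19, 0.51 and 0.52.

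Genes that TGF-β induces in many cells did not pass the test as single genes. None of 17 was called by limma, with 11 lower, 6 higher and 4 at an unadjusted *p* under 0.05, and the median log2 difference was -0.39. *Fn1*, the gene of fibronectin, had values of 9950 and 8776 in WT, against 5898 and 5939 in Rxra-KO, a log2 difference of -0.66 that was not called by limma (adjusted *p* = 0.14) but was called by edgeR, DESeq2 and limma voom. *Cdkn1a*, a cell cycle inhibitor, and *Klf10*, an early response gene, had log2 differences of 0.26 and -0.39 and were not called. Of 9 genes that depend on TGF-β in microglia, *Fcrls* was called, with 17 and 1 reads in WT, against 810 and 1239 in Rxra-KO, a log2 difference of 7.17 (limma adjusted *p* = 1.76e-54). The value depended on WT, with 5.48 when WT replicate 2 was left out and 8.87 when WT replicate 1 was. *Cx3cr1* and *Siglech* from the same list had log2 differences of -0.30 and -0.61 and were not called, and *Fcrls* was the 1 gene of this list that passed the test. Of the 9 genes, 7 were lower and 2 higher, with a median log2 difference of -0.34, and 2 were at the floor in both groups. The part of small peritoneal macrophages in the rise of *Fcrls* was not tested. Of 11 activin and BMP ligands and antagonists, *Bmp2* was called, with 27 and 35 reads in WT, against 68 and 76 in Rxra-KO, a log2 difference of 1.13 (limma adjusted *p* = 0.0352), and the call was lost whenever 1 of the 4 libraries was left out, in limma voom and in DESeq2. *Bmp7*, *Bmp1* and *Chrd* had log2 differences of 0.51, 0.29 and 0.03 and were not called.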

How the data were processed

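LPMs were double-sorted, their RNA was amplified (SMART-Seq v4) with sequencing on a NextSeq-500 system. Per the labels and the methods of the study, the authors quantified transcripts with Kallisto 0.43.0, summarised them to genes with tximport, scaled with TMM in limma and filtered on CPM. The build named is GRCh38, a human one, for these mouse libraries, and the table holds symbols without coordinates. The deposited values are a normalised read signal, in which each value equals (reads + 0.5) times a fixed step per library. Whole reads were recovered from the deposited signal for 100% of the values (tolerance 0.01 reads). Reads carry no molecular identifiers, so intervals and floors cover counting error only.

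Values were compared on the log2(value + 1) scale with limma 3.58.1 (R 4.3.3) with a mean-variance trend, over all 4 libraries and with no covariate, as two-sided tests with Benjamini-Hochberg adjustment over 18364 genes. The scale understates changes of low genes. Calls needed an adjusted p under 0.05 plus a log2 difference of 0.6 or more in size. The requirement that 2 or more libraries reach a value of 1 removed 0 genes. Each p rests mostly on spread shared between genes (227 prior and 2 residual degrees of freedom). A group was taken as at the floor where neither library had more than 3 reads.

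The genes and lists were chosen with earlier results of these data known. The text names the 10 genes, *Rxra* and *Lyz2*, and from each pathway list the called genes and the 3 uncalled genes of highest mean value, of which 1 is not reported here. *Ltbp2*, *Ltbp3*, *Ltbp4*, *Lrrc32*, *Tgfb3*, *Tgfbr3*, *Smad2* and *Ski* were added as relatives of genes already named, where not among these, after their values were seen. Exon length was the merged exons of GENCODE M21, and promoters were matched by symbol to RefSeq (GRCm38.p6), with an entry for 7 of the 10 genes. Replicate numbers came from the titles. The scripts were tested on simulated data. Alternatives were edgeR 4.0.16 and DESeq2 1.42.0 on the recovered reads, limma voom, no trend, other pseudocounts (0.1 and 5), filters and scalings, a replicate block and leaving out each library.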

Additional observations from a re-analysis of the deposited data

How the results depend on the processing

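The called genes *Tgfb2*, *Ltbp1*, *Thbs1*, *Tgfbr2* and *Tgfbi* kept their direction under each of 16 alternatives. *Tgfb2*, *Ltbp1* and *Tgfbr2* were called in 15 of them, *Thbs1* in 13 and *Tgfbi* in 9. Limma without a mean-variance trend called 0 genes of the table, with 1579 at an unadjusted p under 0.05, and so 0 TGF-β genes and 0 other pathway genes. The log2 differences were then -1.20 for *Tgfb2*, -2.24 for *Ltbp1*, -1.92 for *Thbs1*, 1.82 for *Tgfbr2* and 0.764 for *Tgfbi*, with the spread of each gene estimated on 2 residual degrees of freedom and the same prior for all genes. DESeq2 called 246 genes in all (191 without independent filtering, an alternative chosen after seeing the data), against 421, and 3 of the TGF-β genes in either case, *Ltbp1*, *Tgfb2* and *Tgfbr2*. Under DESeq2, *Thbs1* had a log2 difference of -1.83 and *Tgfbi* one of 0.688. EdgeR called 446 genes, 405 of them shared with limma, and gave 0.718 for *Tgfbi*, which it did not call, nor was it called at 0.764 among the genes with a mean value of at least 10. The adjusted p of *Tgfbi* ran from 0.000232 to 0.9999 over the alternatives. The cause of these differences between tests was not tested.

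Leaving out each library in turn gave between 236 and 377 called genes, between 4 and 5 of the TGF-β genes and between 3 and 5 of the other pathway genes, with fewer samples in each fit and the lone library of a group assumed to vary like the others. The total was 236 without WT replicate 2 and 244 without Rxra-KO replicate 1, and the other pathway genes were 3 without either Rxra-KO library. Over these fits the log2 difference ran from 0.311 to 1.22 for *Tgfbi*, from -0.504 to 0.627 for *Tgfbr1* and from -0.0321 to 0.300 for *Skil*, and the last 2 genes were never called. Limma voom gave -0.054 for *Tgfbr1*.

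The replicate numbers of both groups were also used as a block. Same-numbered libraries deviated together only weakly (correlation 0.0629 over 10049 genes). They did share depth, with replicate 1 the shallower library in both groups (652542 reads in WT, 629030 in Rxra-KO). Replicate 2 was the deeper one (947372 reads in WT, 1047021 in Rxra-KO), and whether same-numbered libraries shared a batch was not tested. With the replicate block, 540 genes were called, among them the 421, and 5 TGF-β genes and 9 other pathway genes. At a median of 9 reads per gene and library, *Smad7* was beyond what this depth could compare, and *Tgfbr1* and *Tgfbr2* were limited by at most 27 and 102 reads per library.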
